A study of Mus musculus with 6 samples.

Results

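Membrane serine proteases and the Kunitz-type inhibitors that restrain them were examined in MIN6 cells, a mouse insulinoma line that serves as a beta cell model. The group holds 7 genes: the proteases St14, Hpn, Tmprss2, Tmprss4 and Prss8 and the inhibitors Spint1 and Spint2. Every probe set whose platform annotation gives only 1 of these symbols was taken, which gave 11 of the 45037 probe sets on the array, or 7 of 18193 genes. The genes were chosen with the Hlxb9 siRNA against control siRNA values of these arrays known, so their differences are given as a description with no test.

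Of the 6 arrays, 3 came from cells transfected with an siRNA against Hlxb9 and 3 from cells given a scrambled negative control siRNA. Hlxb9 is the older name of Mnx1, a homeobox transcription factor of beta cells and motor neurons, and the comparison asks which transcripts differ when it is reduced. RNA was collected 72 hours after transfection, and only preparations with over 75% loss of the protein on a western blot were used, so the Hlxb9 siRNA arrays were chosen by that result. All groups share 1 cell line, siRNA delivery by nucleofection plus a lipid reagent, and a label of sorted cells with no gate named.

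These proteases sit at the cell surface and cut after arginine or lysine, as trypsin does. Matriptase (St14), hepsin (Hpn), Tmprss2 and Tmprss4 are type II transmembrane proteins with the protease outside the cell, and prostasin (Prss8) is held by a lipid anchor. In epithelia, matriptase and prostasin act in a common cascade, and matriptase or hepsin can activate the growth factor precursors pro-HGF and pro-MSP. The inhibitors HAI-1 (Spint1) and HAI-2 (Spint2) are themselves membrane proteins whose Kunitz domains block the active sites of these proteases.

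The targeted transcript was lower in mean but not separated between groups. Mnx1 read 7.53, 7.41 and 7.28 log2 in Hlxb9 siRNA arrays 1, 2 and 3, against 7.82, 7.50 and 7.77 in control arrays 1, 2 and 3. The difference was -0.29 ± 0.13 log2 (SE, limma adjusted p = 0.659). A two-sided exact permutation test gave p = 0.2, where 0.1 is the smallest p that 3 against 3 arrays allow. Control replicate 3 stood apart from the other arrays: signal for the 3' end of Gapdh was 2.13 log2 above that for its 5' end, where the other 5 arrays gave gaps of 0.65 to 0.78. Its correlation with the other arrays over all probe sets was 0.988 to 0.991. Member differences are therefore given with and without this array. Of the 11 beta cell markers looked for, 8 were on the array under their own symbol alone. All 8 lay above the median of all values, 5.16 log2, with Ins2 at 13.81 in Hlxb9 siRNA cells and 13.85 in control cells. Hormone genes of other islet cells were bright too. Gcg stood at 12.87 in Hlxb9 siRNA cells and 13.0 in control cells, and Sst at 13.1 and 13.12.

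Limma called 0 of the 45037 probe sets at an adjusted p of 0.05, a background of 0%, with a smallest adjusted p of 0.623, and 3430 probe sets, 7.62%, had an unadjusted p under 0.05. With limma's array weights, which rest mostly on the arrays numbered 2, it called 1132 probe sets. Among the 11 member probe sets, 8 had a lower mean in Hlxb9 siRNA arrays and 3 a higher one, from -0.50 to 0.55 log2 with a median of -0.10, where all probe sets had a median of 0.0. By the brightest probe set of each gene, 6 of 7 members were lower, but 5 of 7 after repeated quantile normalization or with array weights, where Prss8 changed sign. Only St14 had all 3 Hlxb9 siRNA values below all controls, 1 of 11 member probe sets against 7.29% of all probe sets, and 0 of 11 had all values above them, against 8.27%. Within the pairs of equally numbered arrays, 5 of 11 were lower in all 3 pairs, against 16% of all probe sets, and 1 was higher in all 3, against 17.9%. These shares describe genes picked with this contrast known and support nothing.

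**Figure D1:**
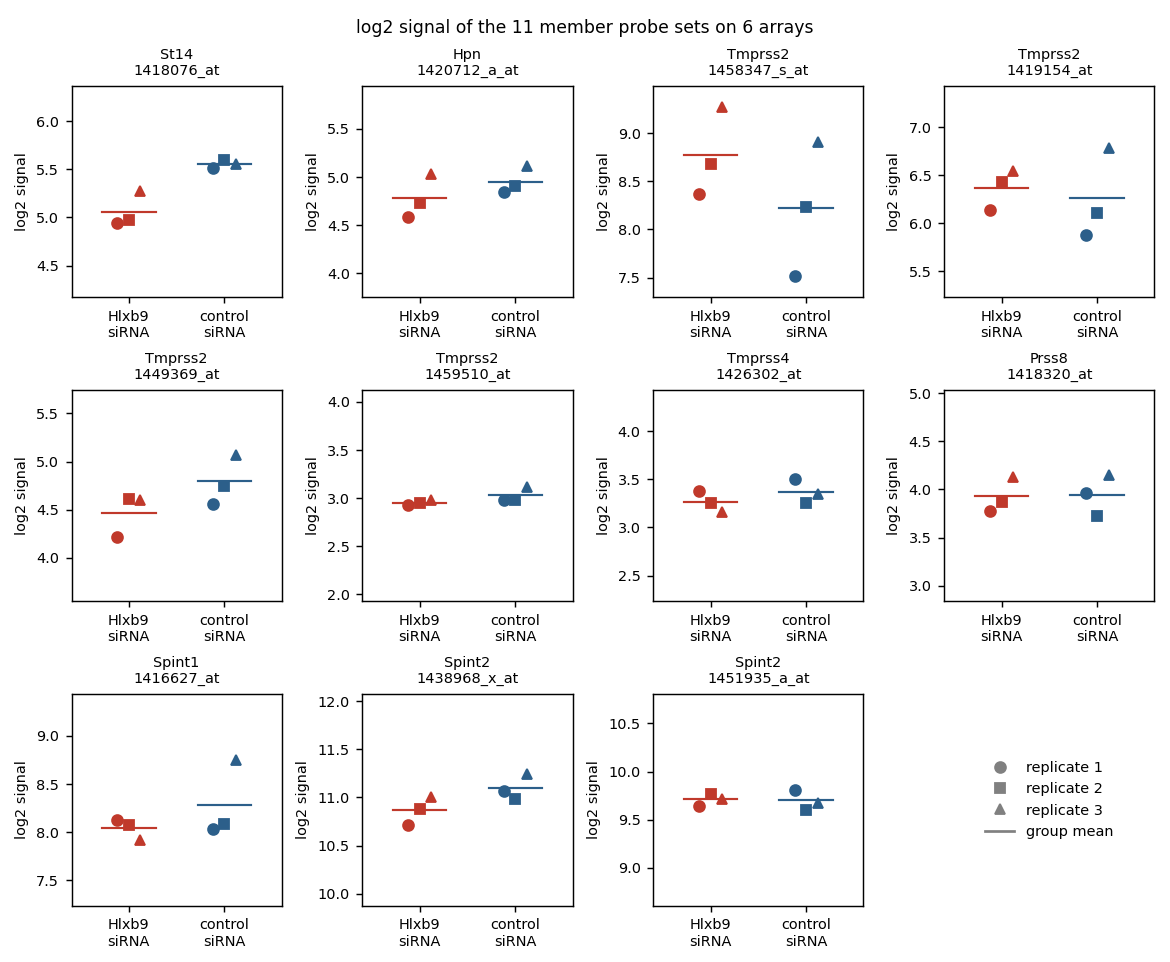
log2 RMA signal (y axis, the same span in each panel but a different position) of each of the 11 member probe sets in the 3 Hlxb9 siRNA arrays (red, left) and the 3 control siRNA arrays (blue, right); marker shapes give the replicate number and lines the group means. St14 is the only panel in which the groups do not overlap, and the Tmprss2 probe set at the right of centre in the top row, 1458347_s_at, spans 1.75 log2.

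St14 encodes matriptase, the protease that can activate prostasin. Its single probe set, 1418076_at, read 4.94, 4.97 and 5.27 log2 in Hlxb9 siRNA arrays 1, 2 and 3, against 5.51, 5.60 and 5.56 in control arrays 1, 2 and 3. The highest Hlxb9 siRNA array lay 0.25 log2 below the lowest control array. Means were 5.06 ± 0.18 in Hlxb9 siRNA cells and 5.56 ± 0.042 in control cells (SD, n = 3 each), a difference of -0.50 ± 0.12 log2 (SE), or a signal 29.2% lower. A lower difference was found in 0.706% of all probe sets, a rank that describes a gene chosen with this contrast known. The pairs of equal number differed by -0.57, -0.63 and -0.30 log2. The value was -0.50 without control replicate 3 and -0.60 to -0.44 over all 6 single-array omissions. The signal is close to the median of all values, and adding an offset of 32 to the linear signal brought the difference to -0.27.

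Hpn encodes hepsin, a protease known best from liver. Its probe set 1420712_a_at read 4.58, 4.73 and 5.03 log2 in Hlxb9 siRNA arrays 1, 2 and 3, against 4.84, 4.91 and 5.12 in control arrays 1, 2 and 3. The groups overlapped, since Hlxb9 siRNA replicate 3 lay above control replicates 1 and 2. The difference was -0.18 ± 0.15 log2 (SE), and -0.09 without control replicate 3. All 3 pairs of equal number were lower, by -0.26, -0.18 and -0.09 log2, and in both groups the arrays kept the same order by number. The mean lay below the median of all values, where RMA signal gives little sign of whether a transcript is present.

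Tmprss2, a protease of prostate, gut and airway epithelium, has 4 probe sets that went in different directions. The brightest, 1458347_s_at, read 8.37, 8.68 and 9.27 log2 in Hlxb9 siRNA arrays 1, 2 and 3, against 7.52, 8.23 and 8.91 in control arrays 1, 2 and 3. Each Hlxb9 siRNA array exceeded the control array of its number, by 0.85, 0.46 and 0.36 log2, while the groups as wholes overlapped widely. The mean difference was 0.55 ± 0.36 log2 (SE), a 1.47-fold ratio. A higher difference was found in 0.815% of all probe sets, a rank that describes a gene chosen with this contrast known. The mean difference was 0.90 without control replicate 3 and 0.20 without control replicate 1. A fit that took equal numbers as pairs gave 0.55 with an SE of 0.14, though the labels state no pairing.

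The second Tmprss2 probe set, 1419154_at, read 6.14, 6.43 and 6.54 log2 in Hlxb9 siRNA arrays 1, 2 and 3, against 5.88, 6.11 and 6.78 in control arrays 1, 2 and 3. It was higher in pairs 1 and 2 and lower in pair 3, and differed by 0.11 ± 0.23 log2 (SE) over all arrays and by 0.37 without control replicate 3. The third, 1449369_at, read 4.22, 4.61 and 4.60 log2 in Hlxb9 siRNA arrays, against 4.56, 4.75 and 5.07 in control arrays of the same numbers. It went the other way, lower in all 3 pairs with a difference of -0.32 ± 0.17 (SE), or -0.18 without control replicate 3, though 2 Hlxb9 siRNA arrays lay above the lowest control. The fourth, 1459510_at, lay near the floor of the array, between 2.93 and 2.98 log2 in Hlxb9 siRNA cells and between 2.98 and 3.12 in control cells (difference -0.08, and -0.03 without control replicate 3). The mean difference over the 4 Tmprss2 probe sets was 0.07, so the gene has no direction that its probe sets share. Such disagreement is common here: of 9010 genes read by more than 1 probe set, 59.3% have differences of both signs.

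Tmprss4 and Prss8 were dim and showed little difference. Tmprss4, a protease raised in several epithelial tumours, read 3.38, 3.25 and 3.16 log2 in Hlxb9 siRNA arrays 1, 2 and 3, against 3.50, 3.25 and 3.35 in control arrays 1, 2 and 3, with a difference of -0.10 ± 0.12 log2 (SE), or -0.11 without control replicate 3. Prss8, prostasin, known for its action on the epithelial sodium channel, read 3.78, 3.87 and 4.13 log2 in Hlxb9 siRNA arrays, against 3.96, 3.72 and 4.15 in control arrays of the same numbers. Its difference was -0.01 ± 0.15 log2 (SE) and 0.09 without control replicate 3. Both genes overlapped between groups, and with Hpn they make up the 3 members whose mean lay below the median of all values.

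The inhibitor genes gave bright signals. Spint1, encoding HAI-1, a known inhibitor of matriptase, read 8.13, 8.07 and 7.92 log2 in Hlxb9 siRNA arrays 1, 2 and 3, against 8.03, 8.08 and 8.75 in control arrays 1, 2 and 3. A single array, control replicate 3, carried the difference: it was -0.24 ± 0.20 log2 (SE) over all arrays and -0.01 without that array. That is the array with the high 3' to 5' ratio of Gapdh, and the part of this ratio in the Spint1 value was not tested.

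Spint2 encodes HAI-2, whose loss in people causes a congenital diarrhoea. Its brightest probe set, 1438968_x_at, read 10.71, 10.88 and 11.01 log2 in Hlxb9 siRNA arrays 1, 2 and 3, against 11.07, 10.98 and 11.24 in control arrays 1, 2 and 3. The difference was -0.23 ± 0.12 log2 (SE), or 14.7% lower in signal, and -0.16 without control replicate 3, with all 3 pairs lower and Hlxb9 siRNA replicate 3 just above control replicate 2. The other Spint2 probe set, 1451935_a_at, read 9.64, 9.77 and 9.71 log2 in Hlxb9 siRNA arrays, against 9.81, 9.60 and 9.67 in control arrays of the same numbers, a difference of 0.01 ± 0.10 (SE), or 0.0 without control replicate 3. The suffix _x_at marks probes that can bind related transcripts, so the 2 readings of Spint2 differ in what they may detect.

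**Figure D2:**
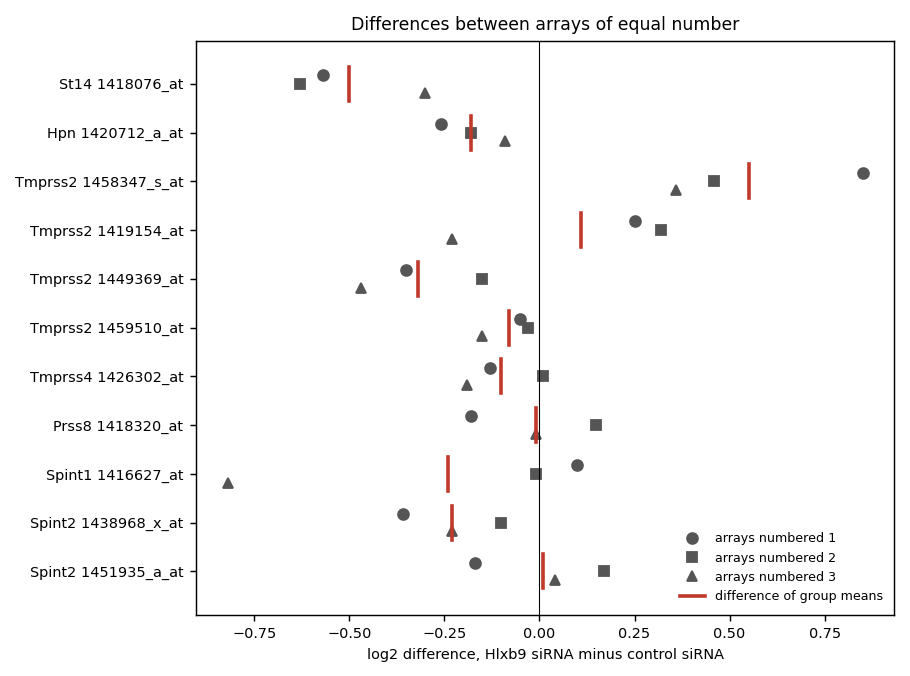
log2 difference, Hlxb9 siRNA minus control siRNA (x axis), of each member probe set (y axis) between arrays of replicate number 1, 2 and 3 (markers) and between group means (red lines). St14, Hpn, 2 of the Tmprss2 probe sets and the _x_at probe set of Spint2 lie below 0 in all 3 pairs, 1458347_s_at of Tmprss2 lies above 0 in all 3, and the Spint1 mean is set by pair 3 at -0.82.

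The spread among arrays of 1 group differed widely between members. The members were chosen with results of these arrays known, so their spread is a description too. For 1458347_s_at of Tmprss2 the within-group SD was 0.59 log2, larger than for 99% of all probe sets, and for 1419154_at of the same gene it was 0.36, larger than for 92.7%. Spint1 followed at 0.29, again through control replicate 3, while the median over all probe sets was 0.17. St14, at 0.13, was tighter than most. In 6 of the 11 member probe sets the arrays numbered 3 were the highest of both groups, against 17.6% of all probe sets. In 3 of 11, those of Hpn, 1458347_s_at and 1419154_at of Tmprss2, the numbered arrays stood in the same order in both groups, against 20.5% of all probe sets. Several probe sets of Tmprss2 enter both counts, so the 11 are not separate readings.

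**Figure D3:**
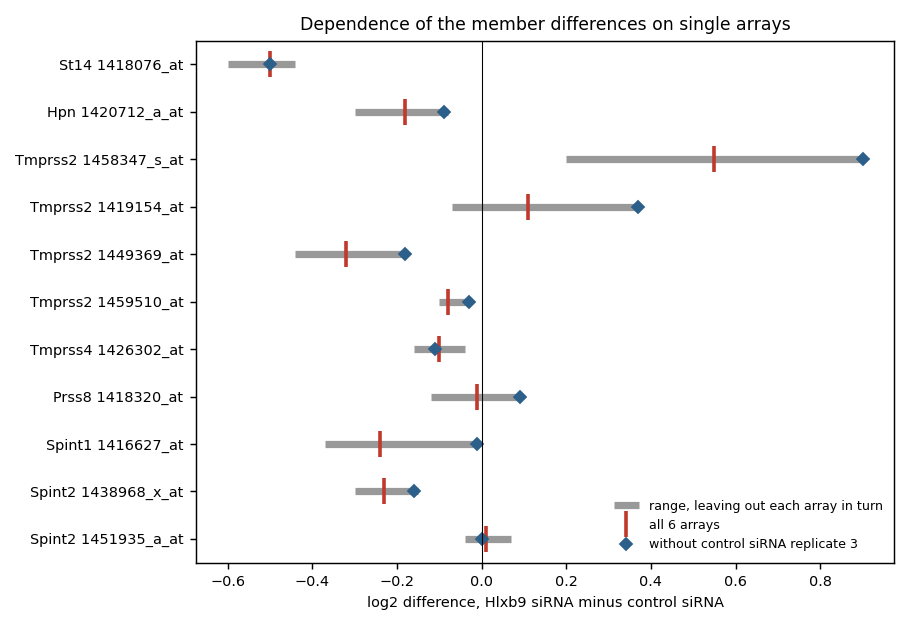
log2 difference, Hlxb9 siRNA minus control siRNA (x axis), for each member probe set (y axis) with all 6 arrays (red), without control siRNA replicate 3 (blue), and as the range when each array is left out in turn (grey). St14 stays between -0.60 and -0.44, Spint1 goes to -0.01 without control replicate 3, and 1458347_s_at of Tmprss2 runs from 0.20 to 0.90.

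Promoter windows are shown because the reduced factor is a homeobox protein, a class that binds DNA around a TAAT core. RefSeq windows of build GRCm38.p6, 250 bases before to 50 bases after the transcript start, were listed for 4 of the 7 members. Capitals mark TAAT, or ATTA where it lies on the other strand, and GGGCGG or CCGCCC, the GC box bound by Sp1. Each window is written 5′ to 3′ on the strand of its gene.
Hpn, chr7:31115277-31115576, minus strand: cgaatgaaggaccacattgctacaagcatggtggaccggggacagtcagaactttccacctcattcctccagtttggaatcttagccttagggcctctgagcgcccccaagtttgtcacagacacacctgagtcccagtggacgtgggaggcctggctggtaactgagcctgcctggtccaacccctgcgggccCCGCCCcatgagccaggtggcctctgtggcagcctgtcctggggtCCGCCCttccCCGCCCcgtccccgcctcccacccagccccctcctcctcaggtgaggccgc
Tmprss2, chr16:97611146-97611445, minus strand: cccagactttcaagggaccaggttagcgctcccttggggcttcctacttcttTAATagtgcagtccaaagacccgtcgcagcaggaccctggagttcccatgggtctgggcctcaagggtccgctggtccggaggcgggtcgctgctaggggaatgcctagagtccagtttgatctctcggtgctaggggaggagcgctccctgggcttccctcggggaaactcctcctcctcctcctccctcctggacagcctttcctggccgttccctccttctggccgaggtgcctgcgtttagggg
Spint1, chr2:119237110-119237409, plus strand: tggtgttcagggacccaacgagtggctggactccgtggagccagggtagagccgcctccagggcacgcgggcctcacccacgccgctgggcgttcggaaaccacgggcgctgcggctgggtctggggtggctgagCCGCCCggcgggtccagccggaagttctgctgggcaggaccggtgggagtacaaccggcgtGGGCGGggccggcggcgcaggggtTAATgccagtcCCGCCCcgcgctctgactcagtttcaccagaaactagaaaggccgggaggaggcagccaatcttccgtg
Spint2, chr7:29281928-29282227, minus strand: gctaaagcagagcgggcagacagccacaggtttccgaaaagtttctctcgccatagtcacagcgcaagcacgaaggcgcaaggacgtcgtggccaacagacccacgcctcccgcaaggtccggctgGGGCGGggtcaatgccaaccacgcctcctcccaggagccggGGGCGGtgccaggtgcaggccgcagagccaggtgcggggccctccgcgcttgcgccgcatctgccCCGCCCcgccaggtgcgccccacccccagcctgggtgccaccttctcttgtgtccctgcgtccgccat
TAAT occurred once each in the windows of Tmprss2, from 198 bases before the start, and Spint1, from 30 bases before it, on the printed strand, and 58% of all 32851 windows hold it on either strand. The longer homeodomain site TAATTA, which contains TAAT, was in 0 of the 5 member windows, a second Hpn window included, and in 5.29% of all windows. The GC box occurred 3 times each in the printed windows of Hpn, Spint1 and Spint2, and 35.7% of all windows hold it. The grainyhead core AACNNGTT, looked for because grainyhead factors act in epithelia, was in 0 of 5 member windows and in 4.2% of all windows. No marked TAAT overlaps a marked GC box. A match describes the letters of these windows and no binding was measured.

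The genes around this protease system were followed in 5 lists with 74 genes on the array. Limma called 0 of them lower and 0 higher, as it called 0% of all 18193 genes. At an unadjusted p under 0.05, 5 were lower and 2 higher, where 3.74% of all genes were lower and 4.21% higher. By direction alone 47 of the 74 were lower, with a median of -0.05 log2, against 8992 of 18193 genes and a median of 0.0. Of the 74, 30 were brighter than the median of all values. Over probe sets brighter than that median, differences had a median of 0.05, against 0.0 over all probe sets. There 1233 were higher and 768 lower at an unadjusted p under 0.05 (limma), against 1738 and 1692 over all. The part of signal level in the directions of these lists was not tested.

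Of 11 other type II transmembrane proteases, 8 were lower and 3 higher, with a median of -0.07, and all 11 were dimmer than the median of all values. Tmprss13 differed by -0.32 ± 0.15 log2 (SE), Tmprss6, the matriptase-2 of iron control, by -0.24 ± 0.18, and Tmprss11e by -0.16 ± 0.10. Single arrays moved these values: Tmprss6 stood at -0.07 without Hlxb9 siRNA replicate 3 and Tmprss13 at -0.20 without Hlxb9 siRNA replicate 2. Tmprss5 differed by -0.24 over all arrays and by 0.0 without control replicate 3. Among 15 anchored or related trypsin-like proteases 13 were lower, with a median of -0.16 (limma called 0, and 3 were lower at an unadjusted p under 0.05). Of these 15, 3 were brighter than the median of all values.

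Prss23, a secreted trypsin-like protease, read 6.15, 5.91 and 5.71 log2 in Hlxb9 siRNA arrays 1, 2 and 3, against 6.62, 6.44 and 6.34 in control arrays 1, 2 and 3. Its difference of -0.54 ± 0.14 log2 (SE) separated the groups on an _x_at probe set (limma adjusted p = 0.645). Its other probe sets differed by -0.14 and 0.10. On dim probe sets, Prss55 differed by -0.47, Prss27 by -0.39 (-0.21 without control replicate 3) and Habp2 by -0.25, with the other Habp2 probe set at 0.34. All 4 failed the threshold, with limma adjusted p from 0.645 to 0.659.

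The 13 other inhibitors were split, 6 lower and 7 higher, with a median of 0.06. Ambp, whose product is cut into a secreted protein with Kunitz domains, read 8.0, 7.67 and 7.73 log2 in Hlxb9 siRNA arrays 1, 2 and 3, against 7.29, 7.36 and 7.58 in control arrays 1, 2 and 3. All 3 Hlxb9 siRNA values lay above the controls, with a difference of 0.39 ± 0.13 log2 (SE, limma adjusted p = 0.645). Wfikkn2 differed by 0.46 (0.28 without Hlxb9 siRNA replicate 1) and its relative Wfikkn1 by -0.36 (-0.16 without control replicate 3), and Eppin, dim on this array, by -0.26.

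Substrates and receptors of the cascade were 10 lower and 6 higher of 16, with a median of -0.05. Scnn1g, the gamma subunit of the epithelial sodium channel that prostasin helps to cleave, read 4.39, 4.33 and 4.38 log2 in Hlxb9 siRNA arrays 1, 2 and 3, against 4.16, 3.86 and 4.08 in control arrays 1, 2 and 3. It was higher on all Hlxb9 siRNA arrays, by 0.33 ± 0.11 log2 (SE, limma adjusted p = 0.645), on a probe set dimmer than the median of all values. Mst1r, the receptor RON, and Mst1, its ligand precursor MSP, each differed by -0.30 log2 on dim probe sets. Egfr differed by 0.35 on its brightest probe set, and by 0.14 without control replicate 3. Its 6 other probe sets differed by -0.35 to 0.11. Met, the HGF receptor, differed by -0.07 ± 0.14 log2 (SE), and Hgf itself was dim, at 3.41 or lower on all 6 arrays.

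Of 19 epithelial regulators and junction genes, 10 were lower and 9 higher, with a median of 0.0. Cdh1, encoding E-cadherin, differed by -0.15 ± 0.12 log2 (SE), and by -0.06 without control replicate 3. The grainyhead factor gene Grhl1 differed by 0.24, Rab25 by 0.20, Ocln by 0.29 (-0.19 on another probe set) and Elf3, dim on this array, by -0.28. Without control replicate 3 Grhl1 stood at 0.15 and Ocln at 0.16, and without Hlxb9 siRNA replicate 2 Elf3 stood at -0.17. None passed, with limma adjusted p from 0.666 to 0.693 for these 4.

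**Figure D4:**
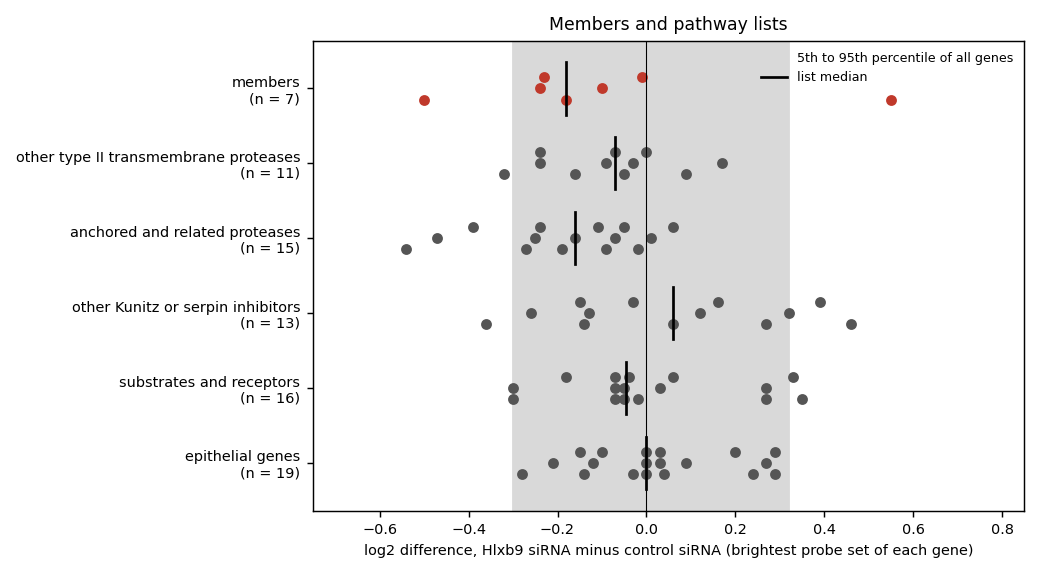
log2 difference, Hlxb9 siRNA minus control siRNA (x axis), of each gene by its brightest probe set (points) for the 7 members (red) and the 5 lists (grey points), with list medians (black lines). Shading spans the 5th to 95th percentile of all genes, -0.30 to 0.32 log2, and St14 at -0.50 and Tmprss2 at 0.55 are the members outside it.

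Limma called 0 of the 51 marker genes on the array, as it called 0% of all 18193 genes. At an unadjusted p under 0.05, 1 was lower and 2 higher, where 3.74% of all genes were lower and 4.21% higher. In the leukocyte list the linear signals of 7 genes summed to 215 to 227 in Hlxb9 siRNA arrays and 166 to 199 in control arrays, carried by Cd68, which differed by 0.54 log2, while the defining marker Ptprc stood at 3.19 in Hlxb9 siRNA cells and 3.09 in control cells. Csf1r of the same list differed by -0.36 log2 on a dim probe set. Summed signals of the acinar, duct, fibroblast, endothelial and other islet cell lists overlapped between groups, though single genes within them differed. Of the 7 duct genes on the array, Krt7 was bright, at 11.86 log2 in Hlxb9 siRNA cells and 11.74 in control cells, and Car2 was higher on all Hlxb9 siRNA arrays, at 9.53 against 9.0 in control arrays, a difference of 0.54. The other 5 lay below the median of all values, Krt19 and Sox9 among them. In the other islet list Ppy, encoding pancreatic polypeptide, differed by 1.13 log2, the largest difference upward of any gene by its brightest probe set, was higher in all 3 pairs by 1.08, 1.08 and 1.23, and stood at 0.32 without control replicate 3 and at 1.90 without Hlxb9 siRNA replicate 3. The part of other cell types in the member values was not tested.

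The pattern of each member over the 6 arrays was set against 11337 genes brighter than the median, by the root mean square difference of values centred on their own means. Dmxl1 was closest to St14, at 0.06 log2, and 18 genes lay within 0.1. Calml4 was closest to Tmprss2, at 0.15, and 0 genes lay within 0.1 of this widely varying probe set. Chmp6 was closest to Spint1, at 0.022, and Clic4 to Spint2, at 0.025, with 258 and 478 genes within 0.1. For Hpn the closest was Sipa1l3, for Prss8 Tmem143 and for Tmprss4 Syvn1, with 189, 131 and 489 genes within 0.1. The members' own SD over the 6 arrays ran from 0.12 for Tmprss4 to 0.61 for Tmprss2. A gene with flat values also lies close to a member that varies little, so these counts are not comparable between members. With 6 arrays from 2 groups, such likeness is a description.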

How the data were processed

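Biotinylated cRNA from 6 ug of total RNA was put on Affymetrix mouse arrays, per the labels. The authors deposited log2 signals, and the submitters' processing notes name RMA and Partek without versions; the settings of RMA are not stated there. Of 45101 probe sets, 64 of the manufacturer's controls were left out. Symbols came from the platform annotation, where 34945 probe sets have 1 symbol, 932 several and 9160 none. Through Entrez identifiers 34741 matched a RefSeq table, and 0 symbols changed. Each gene is represented by its brightest probe set on average.

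The groups were compared with limma 3.58.1 in R 4.3.3 on all 45037 probe sets (lmFit, eBayes, no covariate, two-sided, Benjamini-Hochberg, adjusted p of 0.05), tested on simulated data. Differences are Hlxb9 siRNA minus control siRNA. The members and lists were chosen with earlier results of these data known. From each pathway list 4 genes are named, by smallest p; Met, Hgf, Cdh1 and the cell type markers were added after their values were seen, and each member is given the gene of the most similar pattern. Precision is limited by having 3 arrays per group. Limma's p-values weigh the difference between groups against the spread between these arrays, moderated over all probe sets. The labels tell of independent transfections and name no batch.

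Deviations from group means correlated between arrays of equal number at 0.155, 0.165 and 0.202. Between arrays of unequal number they correlated at 0.072 or lower. Deviations cancel out over the arrays of a group, so these lower values are not separate evidence of pairing. Differences are also given by pairs of equal number, on the strength of the values alone. The main fit and the SEs given with it are unpaired, and only the replicate block fits the pairs. Alternatives were the replicate block, array weights, 2 scalings, an offset, a filter on dim probe sets, another prior, other probe set rules and leaving out each array.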

Additional observations from a re-analysis of the deposited data

How the results depend on the processing

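The count of 0 limma calls was the same with the replicate block (0 calls, smallest adjusted p = 0.478), both scalings, the offset, the dim filter, another prior, an adjusted p of 0.1 and each array left out. The replicate block also left Mnx1 at -0.29 log2 (limma adjusted p = 0.544) and changed no other call. Array weights gave Mnx1 at -0.14, and called 1132 probe sets and 2 genes of the pathway lists, Prss23 and Scnn1g (limma adjusted p = 0.0401 and 0.0444). The weights were highest for control replicate 2 at 4.46 and Hlxb9 siRNA replicate 2 at 2.91, and lowest for control replicate 3 at 0.204. With array weights and any of the 6 arrays left out, an alternative chosen after seeing the data, limma called 0. At an unadjusted p under 0.05 the probe sets numbered 1738 higher and 1692 lower, and 963 and 2346 after centring each array on its median, which moved the median of all differences by -0.05. Leaving out 1 array gave 1757 to 4589 such probe sets, with 1757 without Hlxb9 siRNA replicate 1 and 1829 without Hlxb9 siRNA replicate 2. Leaving out dim probe sets left 4 member genes, of which 3 were lower, since fewer genes were tested. Mnx1 ran from -0.38 to -0.22 and lower members from 5 to 6 with each array left out, and pathway calls stayed at 0. St14 kept its sign under all 15 alternatives, from -0.60 to -0.27. Tmprss2 kept its sign under all 15, from 0.07 for the mean of its probe sets to 0.90. Most of these read its brightest probe set alone, while its probe sets 1449369_at and 1459510_at differed by -0.32 and -0.08 over all arrays. Prss8 kept its sign in 9 of 14. Plain _at probe sets alone gave no value for Hpn or Spint2. The mean of all probe sets was not run for the pathway calls, as it has no p.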

Other observations

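Epcam, an epithelial adhesion protein that matriptase can cleave, was read differently by its 2 probe sets, and is named here because its values stood out after they were seen. The probe set 1447899_x_at read 7.84, 8.25 and 8.22 log2 in Hlxb9 siRNA arrays 1, 2 and 3, against 8.92, 8.91 and 9.56 in control arrays 1, 2 and 3. All Hlxb9 siRNA arrays lay at least 0.66 log2 below the controls, and the difference of -1.02 ± 0.20 log2 (SE) was -0.81 without control replicate 3. The brighter probe set 1416579_a_at read 11.10, 11.25 and 10.83 log2 in Hlxb9 siRNA arrays 1, 2 and 3, against 11.02, 11.20 and 10.76 in control arrays 1, 2 and 3, a difference of 0.06 ± 0.16 (SE). Neither passed limma's threshold over all probe sets.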
